A study of Homo sapiens with 15 samples.

Results

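Genes that responded differently to soluble factors of bone marrow stroma in the multiple myeloma (MM) lines MM.1S and RPMI8226 are described here. The members are the 10 of 15 libraries that hold MM cells in monoculture (MONO) or in the upper transwell (TSW), 6 of MM.1S and 4 of RPMI8226, chosen by cell line and culture condition. For each gene, the mean of TSW minus the mean of MONO on log2(RPKM + 1) in RPMI8226 was subtracted from the same difference in MM.1S, and this difference of differences is called the interaction. It was taken for 9397 of 20468 genes, those whose RPKM averaged 1 or more over the libraries of each line. The account covers genes that changed in 1 line alone or in opposite directions. The response that the lines shared is left aside, except for SOCS3, STAT3 and markers given beside other results.

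Both MM lines are established human lines, and the stroma was HS5, a human bone marrow stromal line. MM.1S MONO and TSW had 3 replicates each, and RPMI8226 MONO and TSW had 2 each. All cultures lasted 48 h, and mRNA libraries were made from RNA of cells sorted as CD38 positive and CD90 negative. In TSW, a porous membrane kept the MM cells apart from a lower chamber, which held HS5 together with MM cells of the same line (CO), so factors released by HS5 and by MM cells of the lower chamber cannot be told apart. No further agent is named for any of these groups, and each line is a single established culture, so a difference between the lines is a difference between those cultures. Whether replicates were separate cultures is not stated, and every p-value measures the spread between these libraries.

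Myeloma cells are malignant plasma cells that lodge in the bone marrow, where stromal cells release cytokines of the IL6 family, chemokines and interferons. Such factors signal mainly through JAK kinases and STAT proteins, NFkB and MAP kinases, and interferons in particular turn on antiviral and antigen presentation genes. Growth of plasma cells also draws on the MYC program of ribosome production and on the secretory machinery of the endoplasmic reticulum (ER).

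RPKM counts paired-end tags (PETs) by transcript length in kilobases and by the sum of PETs that the library had on genes. In MM.1S, MONO replicates 1, 2 and 3 held 9008909, 19050583 and 13265365 PETs, and the TSW replicates held 14260609, 15206078 and 13126596. In RPMI8226, the MONO replicates held 12479636 and 14806058 PETs, and the TSW replicates held 18538060 and 17929263. A single PET on a transcript of 2 kb amounted to an RPKM between 0.0262 and 0.0555 in these libraries, a limit that covers counting error only. The tables of the lines were normalized separately, so levels are compared within a line and only changes are compared between lines.

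The plasma cell label was checked with 12 marker genes, of which 10 had an RPKM of at least 1 in every MM.1S library and 9 in every RPMI8226 library. JCHAIN, the joining chain of polymeric immunoglobulins, was the most abundant of them in all 10 libraries, and SDC1, the syndecan that marks plasma cells, ranged from 143 to 184 in MM.1S and from 70.4 to 98.7 in RPMI8226. The summed RPKM of the list was 5936, 5008 and 5251 in MM.1S MONO and 4086, 3965 and 3953 in TSW, against 2486 and 2401 in RPMI8226 MONO and 4456 and 4275 in TSW. Without JCHAIN the other 11 genes summed to 1834, 1606 and 1496 in MM.1S MONO and 1952, 1999 and 1828 in TSW, which overlap, and to 1021 and 1035 in RPMI8226 MONO and 1872 and 1922 in TSW. SLAMF7, a receptor of plasma cells, had between 83.4 and 99.0 in MM.1S and at most 0.0546 in RPMI8226.

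Of 46 stromal marker genes, COL1A2, COL3A1, COL4A1, LUM, MMP1, MMP2, POSTN, TFPI2, TIMP3 and VCAM1 were at 0 in all 10 libraries, whereas COL1A1, another fibrillar collagen, had between 0.0707 and 0.512. The summed RPKM of the list was 145, 130 and 123 in MM.1S MONO and 99.0, 97.6 and 97.8 in TSW, with VIM or TIMP1, which many cell types express, as the most abundant gene. In RPMI8226 the sum was 4220 and 4545 in MONO and 1989 and 2307 in TSW, nearly all of it FN1, the matrix protein fibronectin. Without FN1 the sums in RPMI8226 were 230 and 235 in MONO and 311 and 345 in TSW, with VIM highest in MONO and S100A6 highest in TSW. The 24 marker genes of other blood cells included the T cell gene CD3D, the neutrophil gene ELANE, the natural killer cell genes FCGR3A and KLRD1 and the platelet genes PF4 and PPBP, which were at 0 in all 10 libraries. Other T and natural killer cell genes were not at 0. CD3E had 2.05, 1.46 and 1.69 in MM.1S MONO and 0.139, 0.478 and 0.504 in TSW. GNLY had 1.28, 1.03 and 0.61 in MM.1S MONO and 0.567, 0.418 and 0.352 in TSW. CD8A had 2.05 and 1.18 in RPMI8226 MONO and 1.16 and 0.744 in TSW. The sum of the 24 genes was 16.6, 14.5 and 12.5 in MM.1S MONO, 16.1, 17.3 and 16.2 in TSW, 34.5 and 35.0 in RPMI8226 MONO and 93.4 and 105 in TSW. CD68, a lysosomal membrane protein best known from macrophages, was the most abundant gene of this list in every library, with 29.7 and 31.0 in RPMI8226 MONO and 81.5 and 91.0 in TSW, while ITGAM went from 2.05 and 2.02 to 7.68 and 8.5 and CSF1R from 0.0797 and 0.168 to 1.53 and 2.23. The part of these genes in the results below was not tested.

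Certain libraries stood apart in the genes RPS14P3 and TRNN, for a reason that was not tested. RPS14P3, a processed pseudogene of a ribosomal protein, had an RPKM of 84.2 in MM.1S MONO replicate 2 and of 94.8 and 93.6 in the RPMI8226 TSW libraries. In the other 12 libraries, CO included, it lay between 2.2 and 6.44. TRNN, a tRNA of the mitochondrial genome, had 1.44 in that MONO library and 2.22 and 1.53 in those TSW libraries, against 82.3 to 587 elsewhere. Both RPMI8226 TSW libraries are on the same side, so within RPMI8226 this library property and TSW cannot be told apart. A term for the 3 libraries was therefore added to the fit as an alternative, and its size rests on MM.1S MONO replicate 2 alone. The RPMI8226 CO libraries did not stand apart, and their values are given beside those of TSW for genes that the results turn on. CO libraries also held transcripts of stromal marker genes: MMP1, at 0 in MONO and TSW, had 44.5, 46.9 and 41 in MM.1S CO and 35.1 and 53.2 in RPMI8226 CO, and the 46 genes summed to 297, 327 and 282 and to 2425 and 2692. The part of these transcripts in the CO values below was not tested. CO and TSW share the same MONO libraries, so their values are placed side by side and are no independent support for each other.

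**Figure D1:**
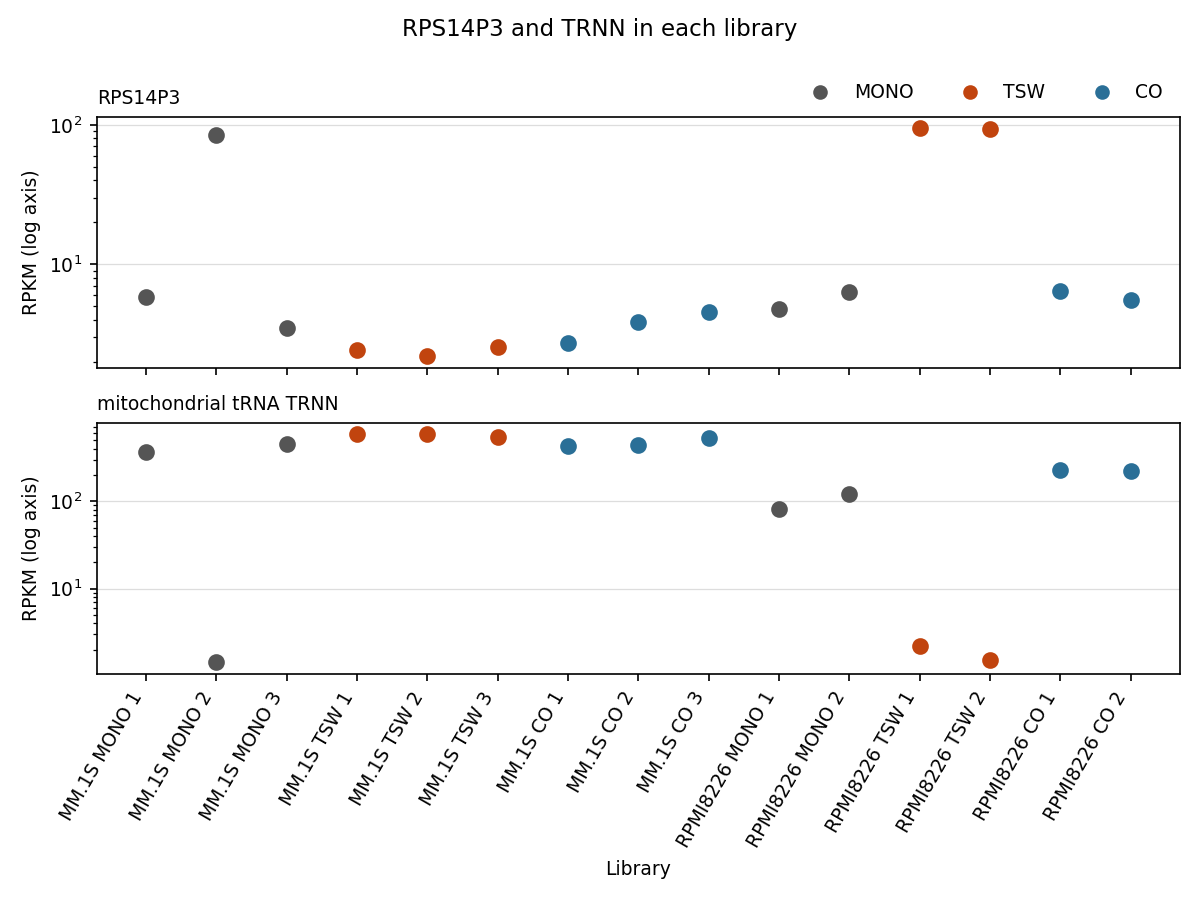
RPKM of RPS14P3 (top) and of the mitochondrial tRNA TRNN (bottom) in each of the 15 libraries, on log axes, with MONO in grey, TSW in orange and CO in blue. MM.1S MONO replicate 2 and the RPMI8226 TSW libraries have RPS14P3 between 84.2 and 94.8 and TRNN between 1.44 and 2.22, and the other 12 libraries have at most 6.44 and at least 82.3.

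MM.1S MONO replicate 1 lay farthest from the rest of its group, at Euclidean distances of 41.7 and 42.4 over all genes tested, against 24.5 between replicates 2 and 3. What sets it apart was not tested, and without it 2595 genes were called (1535 with a change in MM.1S above that in RPMI8226), 110 in MM.1S only, 1170 in RPMI8226 only and 62 in opposite directions.

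The interaction was called, at an adjusted p under 0.05 and a difference over 1.5-fold, in 2521 of 9397 genes, or 26.8%. The change in MM.1S was above that in RPMI8226 in 1499 genes (16%) and below it in 1022 (10.9%). Within the lines, 625 genes were higher in TSW than in MONO of MM.1S (6.65%) and 357 were lower (3.8%), whereas 1253 were higher (13.3%) and 1664 lower (17.7%) in RPMI8226. All fold limits were applied to RPKM + 1, so changes in RPKM itself are larger for genes at low levels. A gene is described as changed in 1 line only where the interaction and the change in that line were both called. In the other line the change was neither called nor over 1.2-fold in RPKM + 1 in either direction. By this definition 122 genes changed in MM.1S only, 71 of them higher in TSW (0.756% of the genes tested) and 51 lower (0.543%). RPMI8226 had 1076 such genes, 383 higher (4.08%) and 693 lower (7.37%). Another 48 genes changed in both lines in opposite directions, 16 of them higher in MM.1S and lower in RPMI8226 (0.17%) and 32 the reverse (0.341%). The remaining 1275 genes with an interaction belonged to neither kind: 145 were called in both lines with the same sign, and 551 were called in neither line.

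Values of MONO and TSW did not overlap for 4112 genes (43.8%) in MM.1S and 7781 (82.8%) in RPMI8226, where 2 libraries stand against 2, so a lack of overlap says little by itself in RPMI8226. With the term for the 3 libraries, 1709 genes were called, 67 of them changed in MM.1S only, 768 in RPMI8226 only and 54 in opposite directions. The sign of the interaction was the same with the term in 122 of 122 MM.1S only genes, 1052 of 1076 RPMI8226 only genes and 48 of 48 opposite genes, and 41, 571 and 25 of them kept their group. Without MM.1S MONO replicate 2 the counts were 2557 genes called, 145 in MM.1S only, 1027 in RPMI8226 only and 53 in opposite directions, and without replicate 3 they were 2789, 202 (135 of them higher), 987 and 99. Genes with near-identical copies elsewhere in the genome made up 21.4% of all genes tested. Their share was 25.4% of the genes higher in MM.1S only and 11.8% of those lower there. In RPMI8226 only it was 10.7% of the higher and 31% of the lower genes. Among opposite genes it was 43.8% of those higher in MM.1S and 34.4% of those higher in RPMI8226. Without such genes the counts were 1934, 99, 822 and 31. The share of called genes whose change in MM.1S was above that in RPMI8226 was 59.5%, and it was 49.5% with median-of-ratios scaling, 50.1% with quantile normalization and 51.1% after a correction for GC content and length. Genes higher in RPMI8226 only made up 35.6% of the RPMI8226 only genes, and 47.3% with median-of-ratios scaling, and genes higher in MM.1S only made up 58.2% of theirs, and 44.4% with quantile normalization.

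**Figure D2:**
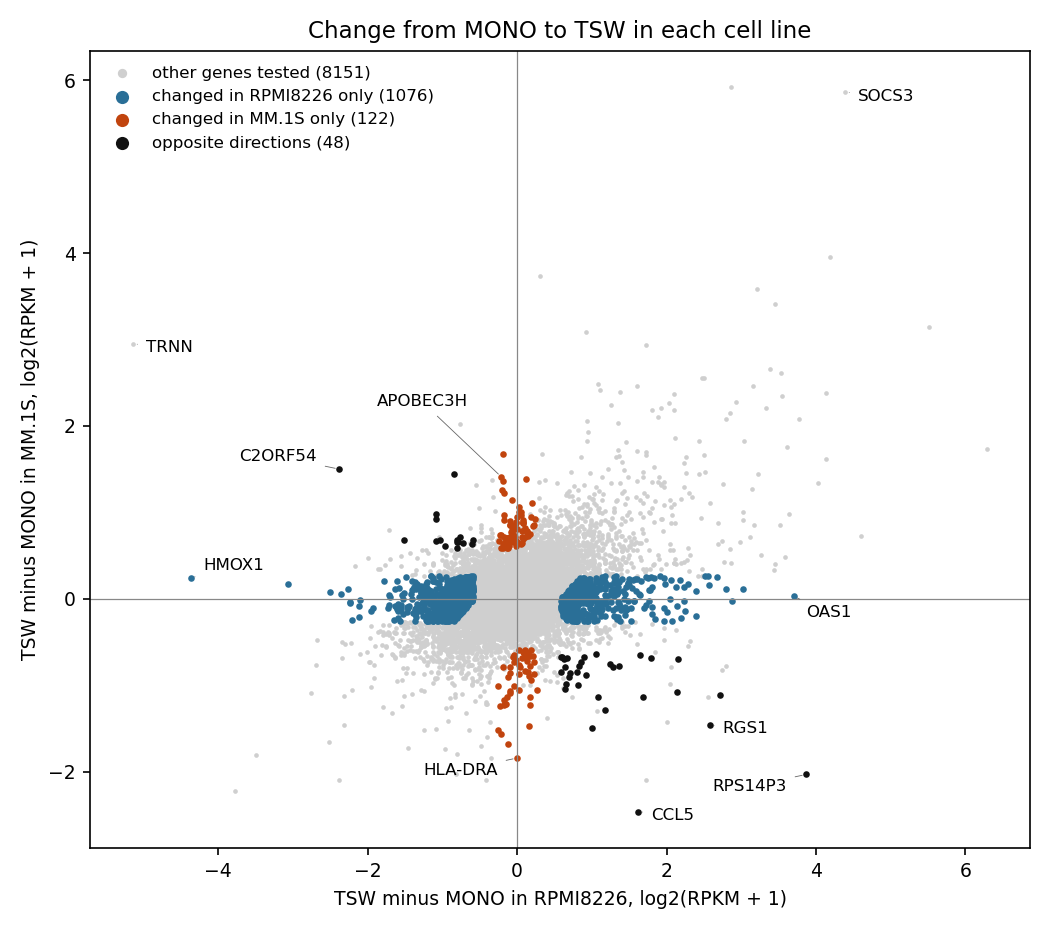
Each point is 1 of the 9397 genes tested, placed by its change from MONO to TSW in RPMI8226 (horizontal) and in MM.1S (vertical), both as differences of mean log2(RPKM + 1). Genes changed in RPMI8226 only (1076, blue) lie along the horizontal axis, genes changed in MM.1S only (122, orange) along the vertical axis, and the 48 genes with opposite changes (black) in the upper left and lower right.

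Counts of each list below stand beside these shares of all genes tested. A called interaction was above 0 in 16% and below 0 in 10.9%. In TSW of RPMI8226, 13.3% were higher and 17.7% lower, and in TSW of MM.1S 6.65% were higher and 3.8% lower. Genes higher in RPMI8226 only made up 4.08%, and genes lower in RPMI8226 only 7.37%. Among the lists compared, interferon-stimulated genes had the median interaction farthest from 0. Of 37 tested, 36 were higher in TSW of RPMI8226 and 12 in TSW of MM.1S, and the interaction was below 0 with a call in 34. Their median change was 2.10 in RPMI8226 and 0.35 in MM.1S, the median interaction was -1.69, and the median interaction of all genes tested was 0.12. The summed RPKM of the list was 783 and 789 in RPMI8226 MONO and 3523 and 3330 in TSW, against 833, 699 and 661 in MM.1S MONO and 881, 866 and 843 in TSW. With the term for libraries that stood apart the median interaction was -1.53, and across the scalings tried it lay between -1.79 and -1.74. RPMI8226 only genes made up 13 of the 37.

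OAS1, which makes the oligoadenylates that activate RNase L, had an RPKM of 4.55 and 3.74 in RPMI8226 MONO and 71.4 and 60.2 in TSW. In MM.1S it had 9.4, 9.31 and 8.87 in MONO and 9.83, 9.33 and 9.14 in TSW. Both RPMI8226 TSW libraries were far above their MONO libraries, and the MM.1S groups overlapped. The interaction of OAS1 was -3.66 (SE 0.14, adjusted p = 1.09e-09), and -3.63 with the library term, and RPMI8226 CO had 63.6 and 60. IRF7, the transcription factor that drives type I interferon genes, rose from 2.96 and 3.16 to 27.6 and 27 in RPMI8226, whereas MM.1S had 4.88, 3.78 and 3.66 in MONO and 4.16, 5.19 and 4.31 in TSW. RPMI8226 CO had 21 and 22.4, and the MM.1S groups overlapped, with an interaction of -2.68 (SE 0.16, adjusted p = 4.06e-08). IFITM1, a membrane protein that blocks viral entry, had 114 and 126 in RPMI8226 MONO and 708 and 717 in TSW, while the MM.1S libraries had 1.55, 1.02 and 1.89 in MONO and 2.15, 2.02 and 1.7 in TSW. The MM.1S groups overlapped at a level near 2, and the interaction was -2.30 (SE 0.17, adjusted p = 3.85e-07).

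ZBP1, a sensor of Z-form nucleic acids that can start necroptosis, had an RPKM of 0.347 and 0.501 in RPMI8226 MONO and 5.65 and 5.34 in TSW. MM.1S had 6.17, 5.85 and 4.31 in MONO and 4.64, 5.1 and 3.77 in TSW, and these groups overlapped. SLFN5, an interferon-induced Schlafen protein, had 1.58 and 1.52 in RPMI8226 MONO and 19.8 and 16 in TSW, and 1.67, 3.86 and 3.6 in MONO and 2.55, 2.61 and 3.49 in TSW of MM.1S, which overlapped. Its interaction was -2.90 (SE 0.29, adjusted p = 5.38e-06), or -2.27 with the library term. APOL3, an interferon-induced apolipoprotein L, went from 4.87 and 4.66 to 35.2 and 36 in RPMI8226. In MM.1S the values of 27.9, 23.1 and 22.2 in MONO and 30.6, 28.2 and 28.2 in TSW did not overlap either, but the change was 0.25 against 2.67 in RPMI8226. The interactions of ZBP1 and APOL3 were both -2.42, and that of ZBP1 was -3.70 with a pseudocount of 0.1 and -3.92 with voom, since adding 1 to RPKM shrinks changes of genes at low levels.

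The promoters of OAS1 and IFITM1 are shown because both genes belong to the interferon group and hold a palindrome of the kind that STAT dimers bind. They are RefSeq sequences of GRCh38.p14, from 250 bases before to 50 bases after the start, at chr12:112906712-112907011 on the + strand and chr11:313790-314089 on the + strand, with capitals marking TTCNNNGAA. The match starts 168 bases before the start of OAS1 and 12 bases before that of IFITM1.
OAS1: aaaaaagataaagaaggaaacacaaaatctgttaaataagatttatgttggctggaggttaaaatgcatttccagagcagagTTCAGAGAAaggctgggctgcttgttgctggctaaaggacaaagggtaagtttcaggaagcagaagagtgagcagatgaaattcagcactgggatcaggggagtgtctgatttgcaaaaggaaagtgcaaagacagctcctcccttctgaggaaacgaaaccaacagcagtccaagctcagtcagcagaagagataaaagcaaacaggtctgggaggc
IFITM1: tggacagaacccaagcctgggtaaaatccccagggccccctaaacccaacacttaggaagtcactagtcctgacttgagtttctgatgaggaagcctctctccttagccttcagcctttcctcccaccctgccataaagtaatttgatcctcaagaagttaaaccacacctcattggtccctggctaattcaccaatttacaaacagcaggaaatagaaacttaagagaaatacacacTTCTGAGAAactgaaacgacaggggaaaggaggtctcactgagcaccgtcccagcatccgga
The search for TTCNNNGAA on both strands, which includes every TTCCNGGAA, found it in 479 of the 7714 tested genes with a RefSeq promoter (6.21%) and in 20 of 299 genes higher in RPMI8226 only (6.69%). Those shares are close, and a match is a description, not a site or a cause. Of the 105 named genes, 80 matched a RefSeq promoter.

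MHC class I presentation genes were also higher mainly in RPMI8226. Of 20 genes tested, 14 were higher in RPMI8226 TSW and 2 in MM.1S TSW, 7 were higher in RPMI8226 only, and the median interaction was -0.96, or -0.94 with the library term. HLA-E, a nonclassical class I molecule that natural killer cells recognize, had an RPKM of 42.6 and 43.1 in RPMI8226 MONO and 174 and 166 in TSW, against 95.4, 84.2 and 76.1 in MM.1S MONO and 79.7, 81.2 and 74.3 in TSW. HLA-F, another nonclassical class I molecule, had 4.28 and 4.12 in MONO and 21.6 and 22.3 in TSW of RPMI8226 and 6.74, 8.17 and 4.69 in MONO and 6.3, 7.18 and 4.73 in TSW of MM.1S. HLA-C, a classical class I heavy chain, had 159 and 164 in MONO and 444 and 489 in TSW of RPMI8226, and 217, 183 and 164 in MONO and 187, 171 and 163 in TSW of MM.1S. For all 3, both RPMI8226 TSW libraries were above MONO and the MM.1S groups overlapped, with interactions of -2.08, -2.22 and -1.63. PSMB9, a proteolytic subunit of the immunoproteasome, had 52.6 and 49.4 in RPMI8226 MONO and 130 and 127 in TSW. In MM.1S it had 39.9, 34.9 and 33.9 in MONO and 43.2, 43.5 and 43.7 in TSW, without overlap but with a change of 0.26 against 1.32.

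MHC class II genes also had interactions below 0, but with lower values in MM.1S. Of 13 class II presentation genes tested, 8 were lower in TSW of MM.1S and 2 in TSW of RPMI8226, and the median change was -0.95 in MM.1S and -0.02 in RPMI8226, the latter between -0.03 and 0.07 under the scalings. Their summed RPKM was 1970, 1835 and 1698 in MM.1S MONO and 960, 899 and 848 in TSW, whereas in RPMI8226 it was higher in TSW, with 802 and 823 in MONO and 1048 and 1187 in TSW. The median interaction was -1.01, and -0.96 with the library term, and 4 genes, HLA-DRA, HLA-DRB5, HLA-DPB1 and HLA-DMA, were lower in MM.1S only. HLA-DRA, the alpha chain of HLA-DR, had an RPKM of 445, 453 and 407 in MM.1S MONO and 125, 123 and 113 in TSW. RPMI8226 had 118 and 118 in MONO and 110 and 127 in TSW. The MM.1S groups were far apart and those of RPMI8226 overlapped, with an interaction of -1.85 (SE 0.14, adjusted p = 3.76e-07). HLA-DRB5, a beta chain of HLA-DR, had 20.1, 15.4 and 16.9 in MM.1S MONO and 6.23, 4.84 and 5.9 in TSW, and 8.7 and 9.9 in MONO and 10.6 and 10.4 in TSW of RPMI8226. All MM.1S TSW libraries were below all MM.1S MONO libraries, the RPMI8226 TSW libraries lay slightly above MONO, and the interaction was -1.63 (SE 0.17, adjusted p = 7.7e-06). In MM.1S CO, HLA-DRA had 130, 157 and 137 and HLA-DRB5 had 4.43, 5.3 and 4.72.

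CTSS, the cathepsin that trims the invariant chain of class II complexes, differed from the other class II genes. It had an RPKM of 33.1 and 32 in RPMI8226 MONO and 109 and 110 in TSW, and in MM.1S 24.2, 29.8 and 30.7 in MONO and 27.2, 25.2 and 27.6 in TSW. The RPMI8226 TSW libraries were above MONO and the MM.1S groups overlapped, with an interaction of -1.80 (SE 0.14, adjusted p = 5.52e-07).

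**Figure D3:**
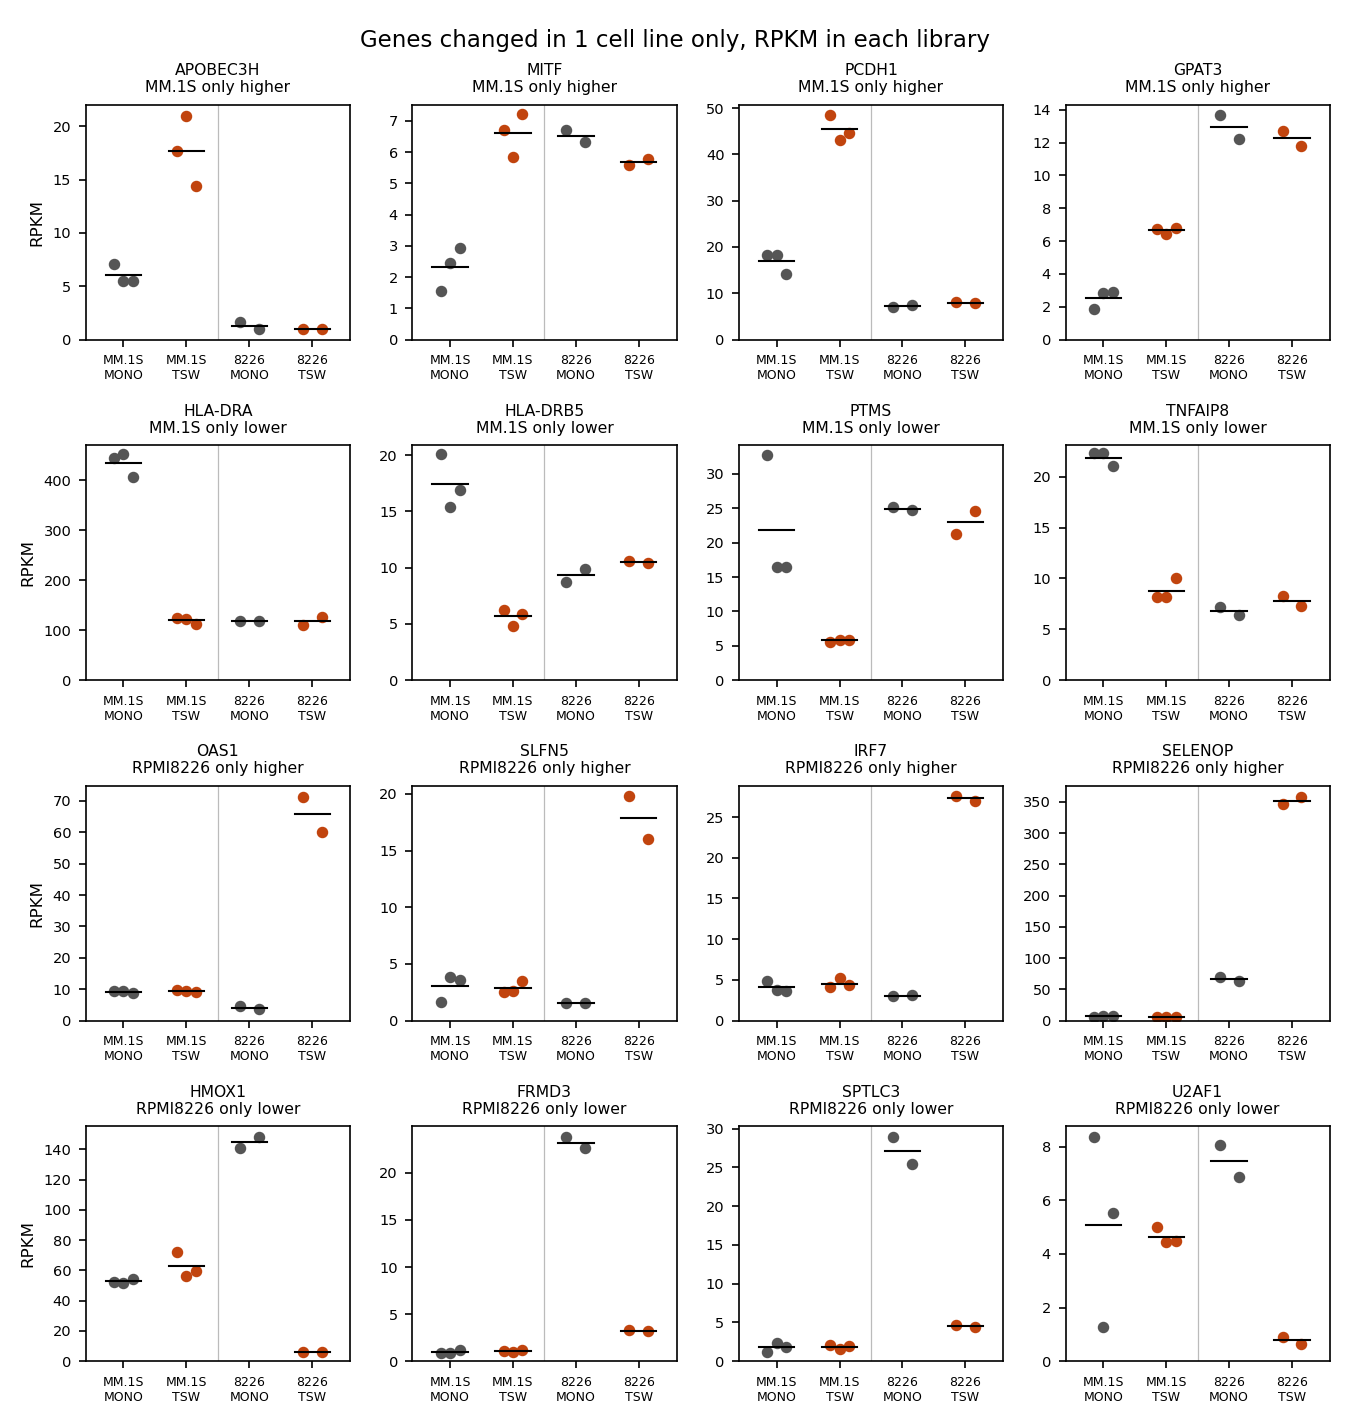
RPKM in each MONO (grey) and TSW (orange) library of genes changed in 1 line only, with MM.1S on the left and RPMI8226 on the right of each panel and lines at the means. From top to bottom the genes are higher in MM.1S only, lower in MM.1S only, higher in RPMI8226 only and lower in RPMI8226 only, OAS1 reaches 71.4 and 60.2 in RPMI8226 TSW, and U2AF1 is as low as 1.29 in MM.1S MONO replicate 2.

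Genes that fell in MM.1S and rose in RPMI8226 included a chemokine and a regulator of chemokine receptors. Of 23 adhesion molecules and chemokines tested, 15 had a called interaction below 0, 13 were higher in RPMI8226 TSW and 8 were lower in MM.1S TSW. Over all genes tested the shares were 10.9%, 13.3% and 3.8% in the same order. The median interaction of the list was -1.01, and -0.65 with the library term. CCL5, a chemokine that attracts T cells and monocytes, had an RPKM of 41.7, 28.1 and 26.3 in MM.1S MONO and 5.34, 4.86 and 4.53 in TSW, and 44.9 and 45.5 in RPMI8226 MONO and 130 and 151 in TSW. It fell by 2.46 on the log2 scale in MM.1S and rose by 1.62 in RPMI8226, without overlap in either line, and the interaction was -4.07 (SE 0.21, adjusted p = 8.56e-09). RGS1, which dampens chemokine receptor signalling in B cells, had 183, 171 and 175 in MONO and 65.5, 64.1 and 60.5 in TSW of MM.1S, and 2.63 and 3.32 in MONO and 20.6 and 24.8 in TSW of RPMI8226. Its interaction was -4.04 (SE 0.16, adjusted p = 1.4e-09), with every MM.1S TSW library below MONO and both RPMI8226 TSW libraries above. In CO, CCL5 had 3.93, 4.27 and 3.91 in MM.1S and 146 and 145 in RPMI8226.

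SELPLG, the adhesion ligand PSGL-1 that plasma cells carry, changed in RPMI8226 only. It had an RPKM of 60.5 and 63.9 in RPMI8226 MONO and 276 and 316 in TSW, and 271, 225 and 207 in MONO and 238, 238 and 215 in TSW of MM.1S, where the groups overlapped. Its interaction was -2.25 (SE 0.19, adjusted p = 9.15e-07). LY86, the partner of the B cell receptor RP105, had 4.55, 3.22 and 1.72 in MM.1S MONO and 0.638, 0.673 and 0.607 in TSW, and 2.37 and 2.54 in MONO and 7.67 and 6.03 in TSW of RPMI8226. ID3, an inhibitor of helix-loop-helix transcription factors, had 23.2, 22 and 21.4 in MM.1S MONO and 8.89, 10.3 and 9.59 in TSW, and 6.6 and 7.03 in MONO and 21.6 and 27.3 in TSW of RPMI8226. Both genes were lower in every MM.1S TSW library and higher in both RPMI8226 TSW libraries, with interactions of -2.46 and -2.83. ID2, a relative of ID3, was lower in MM.1S only, with 17.3, 12.3 and 12.9 in MONO and 5.86, 5.35 and 5.03 in TSW against 49.9 and 46.4 in MONO and 45.2 and 39.6 in TSW of RPMI8226. The interaction of ID2 was -1.05 (SE 0.19, adjusted p = 0.000786).

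JCHAIN had an RPKM of 4102, 3402 and 3754 in MM.1S MONO and 2134, 1966 and 2125 in TSW, and 1465 and 1366 in RPMI8226 MONO and 2585 and 2353 in TSW. The groups did not overlap in either line, the directions were opposite, and the interaction was -1.65 (SE 0.17, adjusted p = 6.62e-06). CD38, an ectoenzyme of plasma cells, had 16 and 16 in RPMI8226 MONO and 49.6 and 42 in TSW, against 38.4, 65 and 61.6 in MONO and 46.9, 50 and 49.7 in TSW of MM.1S. MZB1, an ER protein that helps to assemble immunoglobulin, had 523 and 536 in MONO and 1078 and 1133 in TSW of RPMI8226 and 682, 480 and 402 in MONO and 509, 534 and 460 in TSW of MM.1S. CD38 and MZB1 were higher in both RPMI8226 TSW libraries, while their MM.1S groups overlapped, with interactions of -1.59 and -1.09, or -1.04 and -1.25 with the library term. Cells were sorted on CD38 protein, and the part of that gate in its RNA values was not tested. Another 2 plasma cell markers were lower in both RPMI8226 TSW libraries: TNFRSF17, the receptor BCMA, had 73 and 68.8 in RPMI8226 MONO and 6.4 and 4.43 in TSW, and 216, 145 and 157 in MONO and 49.2, 48 and 47.4 in TSW of MM.1S. IRF4, a transcription factor of plasma cells, had 78.9 and 77.7 in RPMI8226 MONO and 43.7 and 37.2 in TSW, and 97.7, 128 and 128 in MONO and 153, 158 and 151 in TSW of MM.1S. The median interaction of 18 tested genes of plasma cell and B cell identity was 0.05, between -0.11 and -0.04 under the scalings tried and 0.28 with the library term, while 9 tested plasma cell markers had -0.37, with 3 called interactions below 0 and 2, those of TNFRSF17 and IRF4, above.

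Genes higher in MM.1S and lower in RPMI8226 numbered 16 against 32 of the reverse, but 28 against 26 with the library term and 34 against 40 with a pseudocount of 0.1. C2ORF54, also known as MAB21L4, a gene of differentiating epithelia, had an RPKM of 4.73, 4.37 and 3.1 in MM.1S MONO and 13.1, 12.5 and 14 in TSW, and 15.2 and 16.6 in RPMI8226 MONO and 2.35 and 2.13 in TSW. Neither line had overlapping groups, and the interaction was 3.88 (SE 0.19, adjusted p = 6.49e-09). NEIL3, a DNA glycosylase that unhooks crosslinks at replication forks, had 3.97, 5.24 and 4.96 in MONO and 7.94, 8.27 and 8.18 in TSW of MM.1S, and 41.6 and 38.3 in MONO and 14.2 and 12.4 in TSW of RPMI8226. CMTM7, a MARVEL domain membrane protein of B cells, had 4.32, 3.96 and 3.7 in MONO and 9.27, 7.71 and 8.3 in TSW of MM.1S, and 37.5 and 41.9 in MONO and 17.3 and 19.1 in TSW of RPMI8226. For both, every TSW value was above MONO in MM.1S and below it in RPMI8226, and the interaction of NEIL3 was 2.20. LIMS1, an adaptor of integrin adhesions, had 15.3, 14.6 and 19.1 in MONO and 24.7, 24.7 and 29.5 in TSW of MM.1S and 10.9 and 8.91 in MONO and 5.73 and 4.88 in TSW of RPMI8226. C1orf186, also known as RHEX, a regulator of erythroid expansion, had 5.89, 8.03 and 6.59 in MONO and 12.6, 10.4 and 11.1 in TSW of MM.1S and 10.5 and 12.9 in MONO and 5.65 and 6.86 in TSW of RPMI8226. Their interactions were 1.45 and 1.47, and LIMS1 in RPMI8226 CO, with 10.4 and 9.21, overlapped MONO.

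MT1X, a metallothionein that binds zinc, also belonged to this group, with an RPKM of 4.4, 4.29 and 3.73 in MM.1S MONO and 9.03, 8.79 and 9.62 in TSW, and 22.6 and 28.1 in MONO and 12 and 10.6 in TSW of RPMI8226. FDXR, the mitochondrial ferredoxin reductase and a p53 target, had 3.93, 2.84 and 1.95 in MONO and 4.36, 5.3 and 4.59 in TSW of MM.1S, and 6.95 and 7.89 in MONO and 3.76 and 3.89 in TSW of RPMI8226. Groups of both genes were apart in each line, with interactions of 2.07 and 1.39. ANKRD37, a hypoxia-induced ankyrin repeat gene, went the other way, with 6.56, 7.27 and 6.05 in MONO and 3.61, 3.11 and 4.83 in TSW of MM.1S and 0.677 and 0.685 in MONO and 2 and 2.26 in TSW of RPMI8226. Its interaction was -1.56 (SE 0.20, adjusted p = 4.56e-05), or -2.42 with voom.

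**Figure D4:**
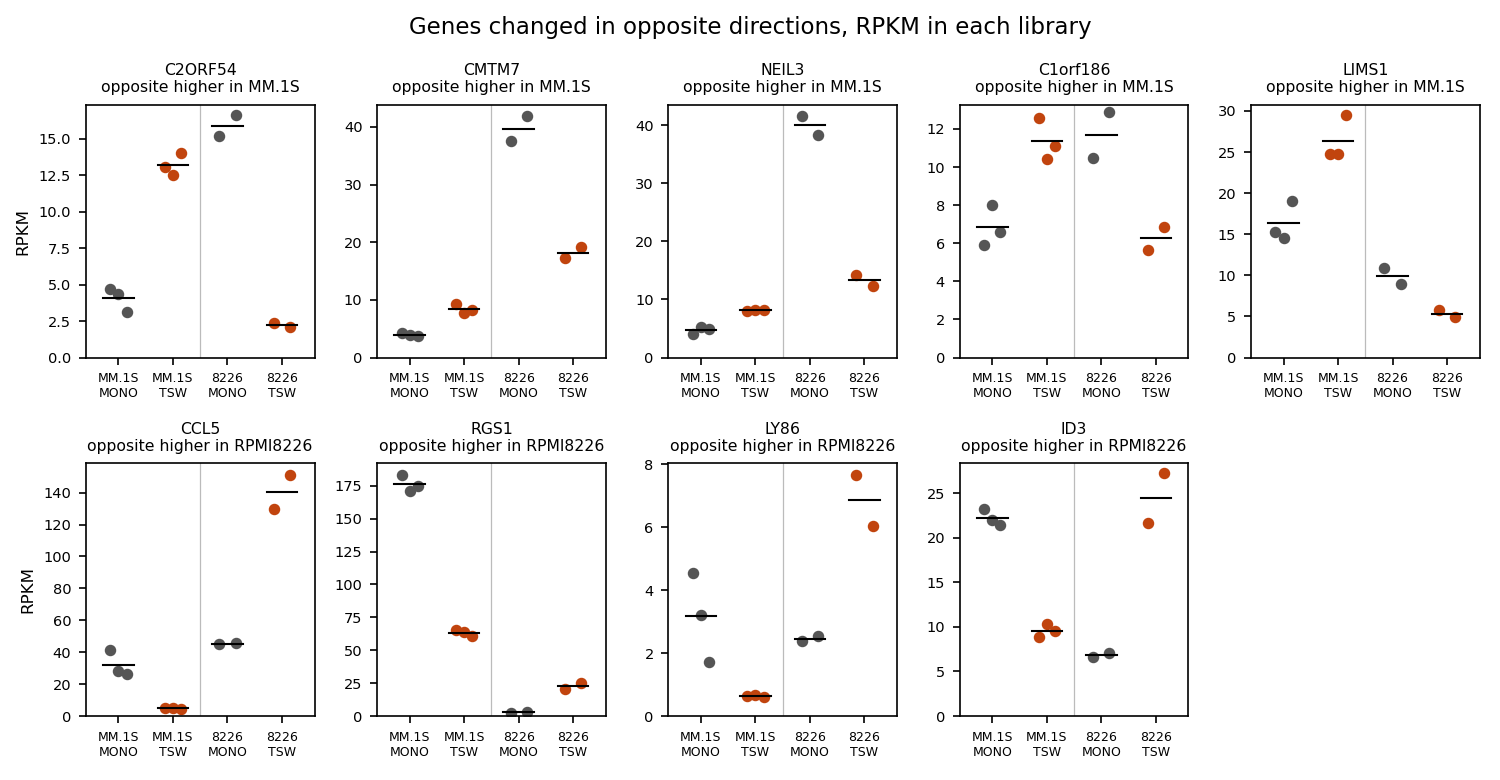
RPKM in each MONO (grey) and TSW (orange) library of genes with opposite changes, with MM.1S on the left and RPMI8226 on the right of each panel and lines at the means. The upper panels show genes higher in TSW of MM.1S and lower in TSW of RPMI8226, the lower panels the reverse, and CCL5 falls to between 4.53 and 5.34 in MM.1S TSW and reaches 130 and 151 in RPMI8226 TSW.

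SOCS3 and STAT3, picked by hand from IL6, JAK and STAT signalling, were higher in TSW of both lines. SOCS3, the feedback inhibitor of these kinases, had an RPKM of 0.162, 0.115 and 0.11 in MM.1S MONO and 63.5, 66.9 and 62.7 in TSW, and 1.82 and 1.31 in RPMI8226 MONO and 50.9 and 53.8 in TSW. STAT3, the transcription factor downstream of IL6, had 14.9, 15.8 and 16 in MONO and 44.2, 46 and 44.2 in TSW of MM.1S and 17.6 and 17.9 in MONO and 58.2 and 59.6 in TSW of RPMI8226. Both were higher in every TSW library of each line, and the interaction of SOCS3 was 1.47 (SE 0.13, adjusted p = 1.68e-06), or 3.15 with a pseudocount of 0.1 and 3.78 with voom, while that of STAT3 was -0.21 (SE 0.10, adjusted p = 0.119) and was not called. Of 29 genes of the list tested, 10 were higher in MM.1S TSW and 15 in RPMI8226 TSW, and the median interaction was -0.32, or -0.15 with the library term and between -0.42 and -0.38 under the scalings. PTPN6, the phosphatase SHP-1 that restrains cytokine receptors, was higher in RPMI8226 only, with 1.92 and 2.42 in MONO and 7.46 and 9.46 in TSW against 55.8, 52.7 and 48.1 in MONO and 51.4, 56.2 and 46 in TSW of MM.1S. The MM.1S groups overlapped, and the interaction of PTPN6 was -1.60 (SE 0.17, adjusted p = 8e-06).

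Among 27 NFkB genes tested, 10 had a called interaction below 0 and 2 above, and the median interaction was -0.20, or -0.09 with the library term and between -0.32 and -0.24 under the scalings. TNFAIP3, the deubiquitinase A20 that ends NFkB signalling, changed in opposite directions, with an RPKM of 24.7, 39.5 and 39.7 in MM.1S MONO and 17.8, 19.3 and 17.7 in TSW, and 5.6 and 6.22 in MONO and 10.1 and 10.5 in TSW of RPMI8226. The groups did not overlap, and the interaction was -1.56 (SE 0.21, adjusted p = 7.99e-05), or -1.13 with the library term. NFKB2, the precursor of the noncanonical subunit, had 20.7 and 21.6 in MONO and 40.1 and 43.5 in TSW of RPMI8226 and 48.5, 52 and 44.1 in MONO and 40.1, 41.3 and 39 in TSW of MM.1S. TNFAIP8, a regulator of apoptosis induced by TNF, was lower in MM.1S only, with 22.3, 22.3 and 21.1 in MONO and 8.22, 8.14 and 10 in TSW against 7.18 and 6.4 in MONO and 8.23 and 7.32 in TSW of RPMI8226. NFKB2 rose in both RPMI8226 TSW libraries and TNFAIP8 fell in every MM.1S TSW library, with interactions of -1.21 and -1.40. PHLDA1, a gene induced by growth factor signals, was higher in RPMI8226 only, with 10.9 and 10.9 in MONO and 29.9 and 28.7 in TSW, and DUSP7, a phosphatase of ERK, was lower there, with 14.3 and 14.5 in MONO and 4.07 and 4.29 in TSW. In MM.1S, PHLDA1 had 9.46, 10 and 10.3 in MONO and 8.73, 9.35 and 11 in TSW, and DUSP7 had 9.02, 10.3 and 9.23 in MONO and 8.89, 8.88 and 8.12 in TSW. The interactions were -1.38 for PHLDA1 and 1.45 for DUSP7.

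Of 41 tested genes of the integrated stress response, which ATF4 drives when amino acids are scarce, 39 were higher in MM.1S TSW and 28 in RPMI8226 TSW, with a median interaction of 0.15, or 0.20 with the library term and between 0.06 and 0.15 under the scalings. Within it, 5 genes were higher in MM.1S only: PSPH, IARS, LARS, NARS and SLC7A1. PSPH, the phosphatase of the last step of serine synthesis, had an RPKM of 9.24, 8.11 and 8.35 in MM.1S MONO and 30.4, 28.1 and 29.5 in TSW, and 10.3 and 10.2 in MONO and 9.47 and 8.24 in TSW of RPMI8226. IARS, the isoleucyl-tRNA synthetase, had 51.5, 83.1 and 85.3 in MONO and 144, 142 and 137 in TSW of MM.1S and 57.5 and 63.3 in MONO and 68.5 and 57.1 in TSW of RPMI8226. MM.1S TSW was above MONO in every library for both genes, the IARS groups of RPMI8226 overlapped, and PSPH was slightly lower in RPMI8226 TSW. The interactions were 1.86 (SE 0.13, adjusted p = 1.88e-07) for PSPH and 0.91 (SE 0.24, adjusted p = 0.00845) for IARS. PPP1R15A, the phosphatase subunit GADD34 that reverses the response, was higher in RPMI8226 only, with 1.75 and 1.33 in MONO and 7.27 and 5.97 in TSW against 21.5, 18.2 and 16 in MONO and 18.7, 24.1 and 23.1 in TSW of MM.1S. Its MM.1S groups overlapped, and the interaction was -1.35.

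PLK3, a polo-like kinase, comes from the list of p53 targets and not from that of the integrated stress response. It was higher in MM.1S only, with an RPKM of 1.51, 2.29 and 1.69 in MONO and 4.37, 3.99 and 3.94 in TSW against 7.88 and 7.42 in MONO and 6.75 and 7.45 in TSW of RPMI8226, and an interaction of 0.95. The promoters of IARS and PLK3 are shown because they hold TGATGNAA, a core that ATF4 and C/EBP proteins bind. They lie at chr9:92293648-92293947 on the - strand and chr1:44800127-44800426 on the + strand of GRCh38.p14 (RefSeq), and capitals mark TGATGNAA on either strand and, in IARS, also CACGTG.
IARS: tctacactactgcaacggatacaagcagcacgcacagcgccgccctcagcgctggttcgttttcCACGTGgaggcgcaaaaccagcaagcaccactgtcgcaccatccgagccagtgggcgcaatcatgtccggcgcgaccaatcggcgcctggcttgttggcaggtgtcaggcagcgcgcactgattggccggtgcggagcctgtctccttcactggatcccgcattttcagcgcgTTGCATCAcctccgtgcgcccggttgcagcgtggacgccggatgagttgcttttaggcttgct
PLK3: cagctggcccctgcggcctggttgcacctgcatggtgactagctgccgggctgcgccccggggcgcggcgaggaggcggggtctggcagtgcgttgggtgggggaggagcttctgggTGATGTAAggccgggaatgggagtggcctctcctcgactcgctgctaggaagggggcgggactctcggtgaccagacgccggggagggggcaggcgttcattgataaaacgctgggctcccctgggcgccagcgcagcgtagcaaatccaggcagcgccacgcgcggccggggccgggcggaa
TGATGNAA was found in 5 of 60 promoters of genes higher in MM.1S only (8.33%) and in 123 of all 7714 (1.59%), as a description with no test. It starts 13 bases before the start in IARS and 133 bases before it in PLK3.

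Genes of oxidative stress defence that NRF2 controls held the gene with the largest decrease among those named for RPMI8226 only. HMOX1, the haem oxygenase that frees iron from haem, had an RPKM of 141 and 148 in RPMI8226 MONO and 5.87 and 6.24 in TSW, and 52.4, 51.3 and 54.4 in MM.1S MONO and 72.3, 56.2 and 59.7 in TSW. Both RPMI8226 TSW libraries were far below MONO, whereas the MM.1S TSW libraries were slightly above it. The interaction of HMOX1 was 4.61 (SE 0.20, adjusted p = 2.73e-09), and 4.53 with the library term, and CO had 4.78 and 4.95 in RPMI8226 and 96.3, 144 and 109 in MM.1S. NQO1, a quinone reductase, had 31.4 and 33.3 in MONO and 8.86 and 8.51 in TSW of RPMI8226 and 11.1, 10.4 and 9.92 in MONO and 13.7, 11.3 and 11.8 in TSW of MM.1S. FTL, the light chain of the iron store ferritin, was instead higher in MM.1S only, with 2180, 1691 and 1564 in MONO and 4697, 4151 and 4087 in TSW against 2380 and 2477 in MONO and 1971 and 2261 in TSW of RPMI8226. ME1, the cytosolic malic enzyme that makes NADPH, had 16.9, 17.3 and 20 in MONO and 38.8, 34.5 and 35.9 in TSW of MM.1S and 23.8 and 21.5 in MONO and 21.2 and 18.6 in TSW of RPMI8226. NQO1 fell in RPMI8226 and FTL and ME1 rose in MM.1S, with interactions of 1.99, 1.46 and 1.15. Across the list, 15 of 28 genes tested had a called interaction above 0, the median interaction was 0.64, and it lay between 0.52 and 0.59 under the scalings and at 0.54 with the library term.

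Ribosome biogenesis genes were lower mainly in RPMI8226. Of 51 genes tested, 45 were lower in RPMI8226 TSW and 2 in MM.1S TSW, 21 were lower in RPMI8226 only, and 38 had a called interaction above 0. The median change was -0.97 in RPMI8226 and -0.14 in MM.1S, and the median interaction was 0.88, or 0.80 with the library term and between 0.75 and 0.79 under the scalings. Their summed RPKM was 4306 and 4206 in RPMI8226 MONO and 2047 and 2055 in TSW, against 4577, 3903 and 3813 in MM.1S MONO and 3533, 3350 and 3409 in TSW. UTP20, a component of the small subunit processome, had an RPKM of 24.6 and 25.9 in RPMI8226 MONO and 8.4 and 7.77 in TSW, and 11, 20.6 and 21.1 in MONO and 17.1, 16.4 and 17 in TSW of MM.1S. WDR43, another component of the processome, had 61.7 and 60.5 in MONO and 30.4 and 28.7 in TSW of RPMI8226 and 32.4, 46.1 and 48.6 in MONO and 49, 48.5 and 50 in TSW of MM.1S. MYBBP1A, a nucleolar protein, had 22.2 and 23.3 in MONO and 7.79 and 8.58 in TSW of RPMI8226 and 33.2, 36.1 and 29 in MONO and 30.9, 31 and 28.2 in TSW of MM.1S. All 3 were low in both RPMI8226 TSW libraries and overlapped between the MM.1S groups, with interactions of 1.53, 1.26 and 1.26.

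MYC, the transcription factor that drives ribosome production, was itself lower in RPMI8226 only. It had an RPKM of 384 and 384 in RPMI8226 MONO and 152 and 166 in TSW, and 345, 402 and 371 in MM.1S MONO and 382, 340 and 355 in TSW, where the groups overlapped. Its interaction was 1.22 (SE 0.15, adjusted p = 4.13e-05), or 1.44 with the library term, and RPMI8226 CO had 131 and 133.

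The promoters of UTP20 and WDR43 are shown because these genes fell together and hold CACGTG, the E-box that MYC and related factors bind. They lie at chr12:101279855-101280154 on the + strand and chr2:28894417-28894716 on the + strand of GRCh38.p14 (RefSeq), with capitals marking CACGTG, 10 bases before the start in UTP20 and 3 bases after it in WDR43.
UTP20: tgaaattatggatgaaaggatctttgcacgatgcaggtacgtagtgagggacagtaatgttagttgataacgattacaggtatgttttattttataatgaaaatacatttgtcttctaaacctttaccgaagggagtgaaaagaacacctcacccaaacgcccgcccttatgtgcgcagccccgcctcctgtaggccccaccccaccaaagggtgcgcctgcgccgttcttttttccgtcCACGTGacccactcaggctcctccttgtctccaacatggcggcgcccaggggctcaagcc
WDR43: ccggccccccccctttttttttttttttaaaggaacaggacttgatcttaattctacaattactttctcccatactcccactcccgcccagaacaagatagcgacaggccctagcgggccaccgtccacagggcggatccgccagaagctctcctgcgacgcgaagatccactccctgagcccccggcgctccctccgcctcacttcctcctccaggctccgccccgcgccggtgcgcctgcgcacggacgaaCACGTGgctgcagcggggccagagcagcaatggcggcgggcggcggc
CACGTG, which reads the same on both strands, was in 80 of 555 promoters of genes lower in RPMI8226 only (14.4%), in 27 of 299 of those higher in RPMI8226 only (9.03%) and in 854 of all 7714 (11.1%). These shares are a description with no test, and the part of MYC in the changes of these genes was not tested.

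DNA replication genes were also lower mainly in RPMI8226. Of 47 tested, 34 were lower in RPMI8226 TSW and 2 in MM.1S TSW, 13 were lower in RPMI8226 only, and the median change was -0.82 in RPMI8226 and -0.21 in MM.1S. The median interaction was 0.68, the same with the library term, and between 0.57 and 0.62 under the scalings. MCM10, which helps to activate the replicative helicase, had an RPKM of 32.1 and 31.5 in RPMI8226 MONO and 10.4 and 10.6 in TSW, and 14.8, 23.5 and 22.1 in MONO and 20.2, 19.6 and 22.7 in TSW of MM.1S. GINS1, a subunit of that helicase, had 29.4 and 27.3 in MONO and 10.5 and 11.6 in TSW of RPMI8226 and 18.1, 19.7 and 21.7 in MONO and 21, 20.6 and 22.8 in TSW of MM.1S. RFC3, a subunit of the sliding clamp loader, had 6.21 and 6.04 in MONO and 2.02 and 2.52 in TSW of RPMI8226 and 3.79, 5.21 and 5.08 in MONO and 5.12, 5.84 and 6.11 in TSW of MM.1S. Each was lower in both RPMI8226 TSW libraries and overlapped in MM.1S, with interactions of 1.58, 1.39 and 1.37. RBL1, a relative of the retinoblastoma protein, had 11.1 and 12 in MONO and 6.69 and 6.01 in TSW of RPMI8226, whereas CDKN1B, the inhibitor p27 of cyclin-dependent kinases, rose from 20.4 and 18.4 to 48.4 and 43.8. In MM.1S, RBL1 had 7.15, 11.1 and 12.9 in MONO and 11.5, 11.3 and 13.4 in TSW, and CDKN1B had 55.6, 49.3 and 53.6 in MONO and 47.1, 48.5 and 52.5 in TSW, with overlap for both. The interaction of CDKN1B was -1.30 (SE 0.18, adjusted p = 0.0001).

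Of 42 G2/M and mitosis genes tested, 28 had a called interaction above 0, 14 were lower in RPMI8226 TSW and 5 were higher in MM.1S TSW. Their median change was -0.46 in RPMI8226 and 0.29 in MM.1S, with a median interaction of 0.72, or 0.67 with the library term and between 0.61 and 0.69 under the scalings. CDC20, an activator of the anaphase-promoting complex, had an RPKM of 106 and 105 in RPMI8226 MONO and 41.7 and 44.9 in TSW, and 51.1, 45.7 and 64 in MONO and 61.3, 51 and 35.9 in TSW of MM.1S. The RPMI8226 TSW libraries were low and the MM.1S groups overlapped, with an interaction of 1.13 (SE 0.25, adjusted p = 0.00262) that was 0.71 (adjusted p = 0.206) with the library term. Whether fewer cells were cycling or each held less of these mRNAs cannot be told apart in bulk RNA.

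Heat shock chaperones were lower in RPMI8226 TSW for 26 of 35 genes tested and in MM.1S TSW for 2, with a median interaction of 0.67, or 0.63 with the library term and between 0.58 and 0.75 under the scalings. FKBP4, a cochaperone of HSP90, had an RPKM of 49.2 and 47.7 in RPMI8226 MONO and 13.9 and 17.3 in TSW, and 134, 95.5 and 95.7 in MONO and 125, 116 and 112 in TSW of MM.1S. HSPD1, the mitochondrial chaperonin HSP60, had 837 and 783 in MONO and 291 and 258 in TSW of RPMI8226 and 609, 405 and 598 in MONO and 481, 477 and 500 in TSW of MM.1S. Both were low in the RPMI8226 TSW libraries and overlapped in MM.1S, and the interactions were 1.71 and 1.44, or 1.39 and 0.67 with the library term. FKBP5, a cochaperone that glucocorticoids induce, had 20 and 19.3 in MONO and 12 and 12.8 in TSW of RPMI8226 and 11.3, 16.8 and 15.9 in MONO and 16.4, 17.1 and 17.8 in TSW of MM.1S, with an interaction of 0.85. PSME3, a nuclear activator of the proteasome, had 106 and 103 in MONO and 52.6 and 52.1 in TSW of RPMI8226 and 96, 102 and 99.7 in MONO and 98.5, 97.2 and 95.7 in TSW of MM.1S. PSME3 fell in RPMI8226 and overlapped in MM.1S, with an interaction of 0.96 (SE 0.10, adjusted p = 7.39e-06).

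Mitochondrial ribosomal proteins were lower in RPMI8226 TSW for 28 of 78 genes tested and in MM.1S TSW for 1, with a median interaction of 0.40, or 0.29 with the library term and between 0.30 and 0.35 under the scalings. The interaction was called in 20 of the 78 (25.6%), close to the 26.8% of all genes tested. MRPL3 had an RPKM of 153 and 147 in RPMI8226 MONO and 64.6 and 58 in TSW, and 101, 89.4 and 101 in MONO and 109, 104 and 106 in TSW of MM.1S. MRPL35 had 36.3 and 35.8 in MONO and 16.1 and 14.9 in TSW of RPMI8226 and 22.3, 18.7 and 20.5 in MONO and 21, 18.6 and 19 in TSW of MM.1S. These proteins of the large mitochondrial subunit were low in both RPMI8226 TSW libraries, MRPL3 lay slightly higher in MM.1S TSW and MRPL35 overlapped, and the interactions were 1.41 and 1.11. ATP5G1, the c subunit of ATP synthase now named ATP5MC1, had 369 and 375 in MONO and 165 and 184 in TSW of RPMI8226 and 249, 187 and 185 in MONO and 232, 224 and 212 in TSW of MM.1S, with an interaction of 1.21. The list of 76 nuclear-encoded oxidative phosphorylation subunits had a median interaction of 0.00, from -0.09 to 0.07 under the scalings and -0.13 with the library term.

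Of 37 lysosome and autophagy genes tested, 17 were higher in RPMI8226 TSW and 5 in MM.1S TSW, 10 were higher in RPMI8226 only, 13 had a called interaction below 0, and the median interaction was -0.34, or -0.46 with the library term and between -0.43 and -0.35 under the scalings. NPC2, which carries cholesterol out of lysosomes, had an RPKM of 63.9 and 66.3 in RPMI8226 MONO and 221 and 237 in TSW, and 40.8, 34.7 and 31.5 in MONO and 40.6, 40 and 37.5 in TSW of MM.1S. SMPDL3A, a secreted phosphodiesterase that LXR induces, had 1.83 and 1.85 in MONO and 6.05 and 5.88 in TSW of RPMI8226 and 2.08, 2.3 and 2.69 in MONO and 2.26, 2.17 and 3.66 in TSW of MM.1S. The RPMI8226 TSW libraries were high and the MM.1S groups overlapped for both, with interactions of -1.65 and -1.17. MITF, a transcription factor of the family that controls lysosomal genes, was instead higher in MM.1S only, with 1.56, 2.46 and 2.92 in MONO and 6.72, 5.85 and 7.23 in TSW against 6.7 and 6.32 in MONO and 5.59 and 5.79 in TSW of RPMI8226. Every MM.1S TSW library was above MONO, the RPMI8226 TSW libraries were slightly lower, and the interaction was 1.38 (SE 0.21, adjusted p = 0.00016).

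ER chaperones and genes of the unfolded protein response had a median change of 0.48 in RPMI8226 and 0.02 in MM.1S over 44 genes tested, the latter between -0.04 and 0.09 under the scalings, with 18 higher in RPMI8226 TSW and 8 in MM.1S TSW. The median interaction was -0.26, between -0.42 and -0.25 under the scalings and -0.34 with the library term, and 10 of the 44 had a called interaction (22.7%), against 26.8% of all genes tested. OS9, a lectin that marks misfolded glycoproteins for degradation, had an RPKM of 83.7 and 84.9 in RPMI8226 MONO and 148 and 169 in TSW, and 95.6, 75.3 and 66.7 in MONO and 71.1, 71.7 and 66.7 in TSW of MM.1S. P4HB, the protein disulphide isomerase, had 434 and 446 in MONO and 779 and 815 in TSW of RPMI8226 and 491, 480 and 423 in MONO and 423, 438 and 389 in TSW of MM.1S. EDEM2, a mannosidase of ER quality control, had 13.6 and 13.6 in MONO and 27.5 and 28.1 in TSW of RPMI8226 and 13.5, 13.1 and 11.8 in MONO and 15, 14 and 13.2 in TSW of MM.1S. All 3 were higher in both RPMI8226 TSW libraries and overlapped in MM.1S, with interactions of -1.06, -1.01 and -0.86. P4HA1, the prolyl hydroxylase subunit that pairs with P4HB, had 10.8 and 10.2 in MONO and 19.7 and 18.3 in TSW of RPMI8226 and 14.6, 16.6 and 17.2 in MONO and 13.3, 12.7 and 13.8 in TSW of MM.1S, with an interaction of -1.06.

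Of 31 tested genes of sterol and fatty acid synthesis, 9 had a called interaction (29%), against 26.8% of all genes tested, and the genes below include GPAT3 and SPTLC3, which are not of that list. ELOVL6, an elongase of fatty acids, was higher in RPMI8226 only, with an RPKM of 17.2 and 16.2 in MONO and 41.2 and 37.3 in TSW against 9.33, 9.35 and 9.5 in MONO and 9.58, 8.68 and 10.3 in TSW of MM.1S. DHCR7, the enzyme of the last step of cholesterol synthesis, was higher in MM.1S only, with 22.6, 25.7 and 23.5 in MONO and 45.6, 43 and 38.2 in TSW against 45.7 and 46.7 in MONO and 39.6 and 48.4 in TSW of RPMI8226. GPAT3, an acyltransferase of triglyceride synthesis, had 1.84, 2.81 and 2.87 in MONO and 6.73, 6.45 and 6.77 in TSW of MM.1S and 13.7 and 12.2 in MONO and 12.7 and 11.8 in TSW of RPMI8226. The groups overlapped in the line without a call for each of the 3 genes, and the interactions were -1.17, 0.87 and 1.21. SPTLC3, a subunit of the serine palmitoyltransferase that starts sphingolipid synthesis, was lower in RPMI8226 only, with 28.9 and 25.4 in MONO and 4.64 and 4.34 in TSW against 1.18, 2.37 and 1.78 in MONO and 2.01, 1.61 and 1.96 in TSW of MM.1S. Its interaction was 2.42 (SE 0.20, adjusted p = 9.34e-07). FASN, the fatty acid synthase, had 28.7, 41 and 36.9 in MONO and 66.6, 72.4 and 64.3 in TSW of MM.1S and 79.7 and 87.8 in MONO and 87 and 113 in TSW of RPMI8226, with an interaction of 0.68, or 1.11 with the library term. That call was lost without MM.1S MONO replicate 1 (0.54), RPMI8226 MONO replicate 2 (0.61) or RPMI8226 TSW replicate 1 (0.50).

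Other genes higher in MM.1S only included a cytidine deaminase and a protocadherin. APOBEC3H, the deaminase that restricts retroviruses, had an RPKM of 7.04, 5.49 and 5.5 in MM.1S MONO and 17.7, 21 and 14.4 in TSW, and 1.65 and 0.985 in MONO and 1.02 and 0.957 in TSW of RPMI8226. PCDH1, a protocadherin of cell adhesion, had 18.2, 18.3 and 14.1 in MONO and 48.6, 43.1 and 44.7 in TSW of MM.1S and 6.93 and 7.56 in MONO and 8.19 and 7.79 in TSW of RPMI8226. Every MM.1S TSW library was above every MM.1S MONO library for these genes, while in RPMI8226 the change was -0.21 for APOBEC3H and 0.12 for PCDH1. The interactions were 1.61 (SE 0.23, adjusted p = 0.000109) and 1.26 (SE 0.16, adjusted p = 3.59e-05) in the same order.

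Among genes lower in MM.1S only, PTMS, the nuclear protein parathymosin, had an RPKM of 32.8, 16.4 and 16.5 in MM.1S MONO and 5.61, 5.89 and 5.88 in TSW, and 25.2 and 24.7 in MONO and 21.3 and 24.6 in TSW of RPMI8226. HOMER3, a scaffold of calcium signalling, had 42.3, 33.1 and 29.5 in MONO and 11.2, 11.4 and 10.6 in TSW of MM.1S and 2.56 and 2.9 in MONO and 2 and 2.39 in TSW of RPMI8226. TSPAN33, a tetraspanin of activated B cells, had 18.7, 15.6 and 12.8 in MONO and 7.69, 6.92 and 6.38 in TSW of MM.1S and 0.9 and 1.43 in MONO and 1.21 and 1.97 in TSW of RPMI8226. Replicate 1 of MM.1S MONO was the highest library for each of these genes, and all MM.1S TSW values were below all MONO values. The interactions were -1.56 (SE 0.32, adjusted p = 0.00166), -1.34 (SE 0.19, adjusted p = 0.000116) and -1.31 (SE 0.23, adjusted p = 0.000493) in that order. GGGNNTNCC, an NFkB type motif, was in 16 of 37 promoters of genes lower in MM.1S only (43.2%) and in 1831 of all 7714 (23.7%), as a description with no test. It was in 20% of promoters of genes higher in MM.1S only, and in RPMI8226 only in 24.7% of higher and 24% of lower genes. TTCNNNGAA, TTCCNGGAA, GGGNNTNCC, TGATGNAA, TGANTCA and CACGTG were each searched in every group of changed genes, and most of those shares are not given.

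SELENOP, the secreted carrier of selenium, rose in RPMI8226, with an RPKM of 69 and 62.7 in MONO and 346 and 358 in TSW, and 476 and 540 in CO. MM.1S had 5.19, 7.22 and 7.32 in MONO and 6.3, 5.22 and 5.08 in TSW, with overlap, and the interaction was -2.61 (SE 0.18, adjusted p = 1.5e-07). FRMD3, a FERM domain protein of the membrane skeleton, fell from 23.8 and 22.6 to 3.33 and 3.16 in RPMI8226, with 0.854, 0.851 and 1.2 in MONO and 1.1, 0.926 and 1.2 in TSW of MM.1S. KRT15, a keratin of basal epithelia, had 4.77 and 4.76 in MONO and 0.202 and 0.242 in TSW of RPMI8226 and 1.35, 1.36 and 0.783 in MONO and 1.19, 0.854 and 1.23 in TSW of MM.1S. CGN, the tight junction protein cingulin, had 6 and 6.42 in MONO and 0.434 and 0.619 in TSW of RPMI8226 and 2.23, 2.41 and 1.8 in MONO and 1.6, 1.93 and 2.68 in TSW of MM.1S. The MM.1S groups overlapped for these 3 genes and the RPMI8226 TSW libraries were low, with interactions of 2.59, 2.20 and 2.19, of which that of KRT15 was 3.86 with a pseudocount of 0.1 and 4.30 with voom, and that of CGN 3.48 with voom. FN1 also fell in RPMI8226, from 3990 and 4310 to 1678 and 1962, and MM.1S had 1.59, 3.79 and 3.38 in MONO and 2.37, 2.55 and 2.48 in TSW, with an interaction of 1.06 (SE 0.28, adjusted p = 0.00825), or 1.74 with the library term. CXCL8, the neutrophil chemokine IL8, was at 0 in all 6 MM.1S libraries of MONO and TSW and had 0.047 and 0.158 in RPMI8226 MONO and 3.42 and 3.66 in TSW. It was among 72 genes tested that averaged under 1 in MONO and TSW of a line and passed through CO alone, in which it had 25.5, 23 and 22.7 in MM.1S, and 19 of the 72 were called. CCNG1, a cyclin that p53 induces, rose in RPMI8226 from 31.3 and 25.6 to 84.1 and 60, with 42.2, 32.3 and 39.6 in MONO and 41.3, 43.1 and 51.8 in TSW of MM.1S and an interaction of -1.05.

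Some genes lower in RPMI8226 only were also low in MM.1S MONO replicate 2, the third library that stood apart. U2AF1, a splicing factor that recognizes the end of introns, had an RPKM of 8.09 and 6.89 in RPMI8226 MONO and 0.899 and 0.656 in TSW, but also 8.38, 1.29 and 5.54 across MM.1S MONO replicates 1 to 3 and 5.02, 4.45 and 4.48 in TSW. HSPE1, the cochaperonin HSP10, had 243 and 222 in MONO and 51.5 and 47.3 in TSW of RPMI8226, and 220, 70 and 161 in MONO and 113, 108 and 124 in TSW of MM.1S. RPL7, a protein of the large ribosomal subunit, had 117 and 107 in MONO and 42.9 and 44.4 in TSW of RPMI8226, and 204, 64.8 and 166 in MONO and 152, 143 and 145 in TSW of MM.1S. In each case MM.1S MONO replicate 2 was the lowest MM.1S library, as it was for SDHD, an anchor of succinate dehydrogenase, with 71.4, 29.5 and 52 in MM.1S MONO and 35.6 and 27 in RPMI8226 TSW. With the library term the interaction of U2AF1 went from 2.37 to 0.01, that of HSPE1 from 1.98 to 0.09, that of RPL7 from 1.51 to -0.48 and that of SDHD from 1.29 to -0.07, and all 4 calls were lost. RPMI8226 CO, which did not stand apart, had 127 and 126 for RPL7, above both MONO libraries, but 55.4 and 53.4 for SDHD, 71.8 and 82.1 for HSPE1 and 3.12 and 3.23 for U2AF1, below both. The change from MONO to CO was -1.58 for HSPE1 (adjusted p 0.00093) and -1.02 for U2AF1 (adjusted p 0.0438), and what these genes share with the library property was not tested. Cytosolic ribosomal proteins as a list, 84 genes tested, had a median interaction of -0.11, which was 0.08 with quantile normalization and -0.59 with the library term.

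Other lists are given by their median interaction, which was 0.12 over all genes tested, 0.18 with the library term and 0.03 to 0.04 under the scalings. It was 0.16 over 31 genes of sterol and fatty acid synthesis, from 0.05 to 0.16 under the scalings and 0.17 with the term, and 0.23 over 46 proteasome subunits, from 0.14 to 0.25 and 0.11. Glycolysis and hypoxia had 0.04 over 30 genes, from -0.06 to 0.05 under the scalings and 0.16 with the term, and p53 targets had 0.09 over 26 genes, from -0.03 to 0.01 and 0.18. The glucocorticoid receptor and its targets had -0.36 over 18 genes, from -0.45 to -0.37 under the scalings and -0.22 with the term, and ERK feedback and AP-1 had -0.25 over 21 genes, from -0.38 to -0.31 and -0.35. G1 cyclins, kinases and inhibitors had 0.30 over 22 genes, from 0.19 to 0.26 under the scalings and 0.54 with the term. The BCL2 family had -0.06 over 14 genes, from -0.15 to -0.10 under the scalings and -0.02 with the term, and TGFbeta and ID genes had -0.13 over 18 genes, from -0.24 to -0.17 and -0.04. LXR targets had 0.03 over 8 genes, from -0.21 to 0.01 under the scalings and 0.10 with the term, and genes of the mitochondrial genome had -0.32 over 15 genes, but 0.04 with quantile normalization and -0.41 with the term. Of the markers of other blood cells only CD68 was tested, with -1.16.

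**Figure D5:**
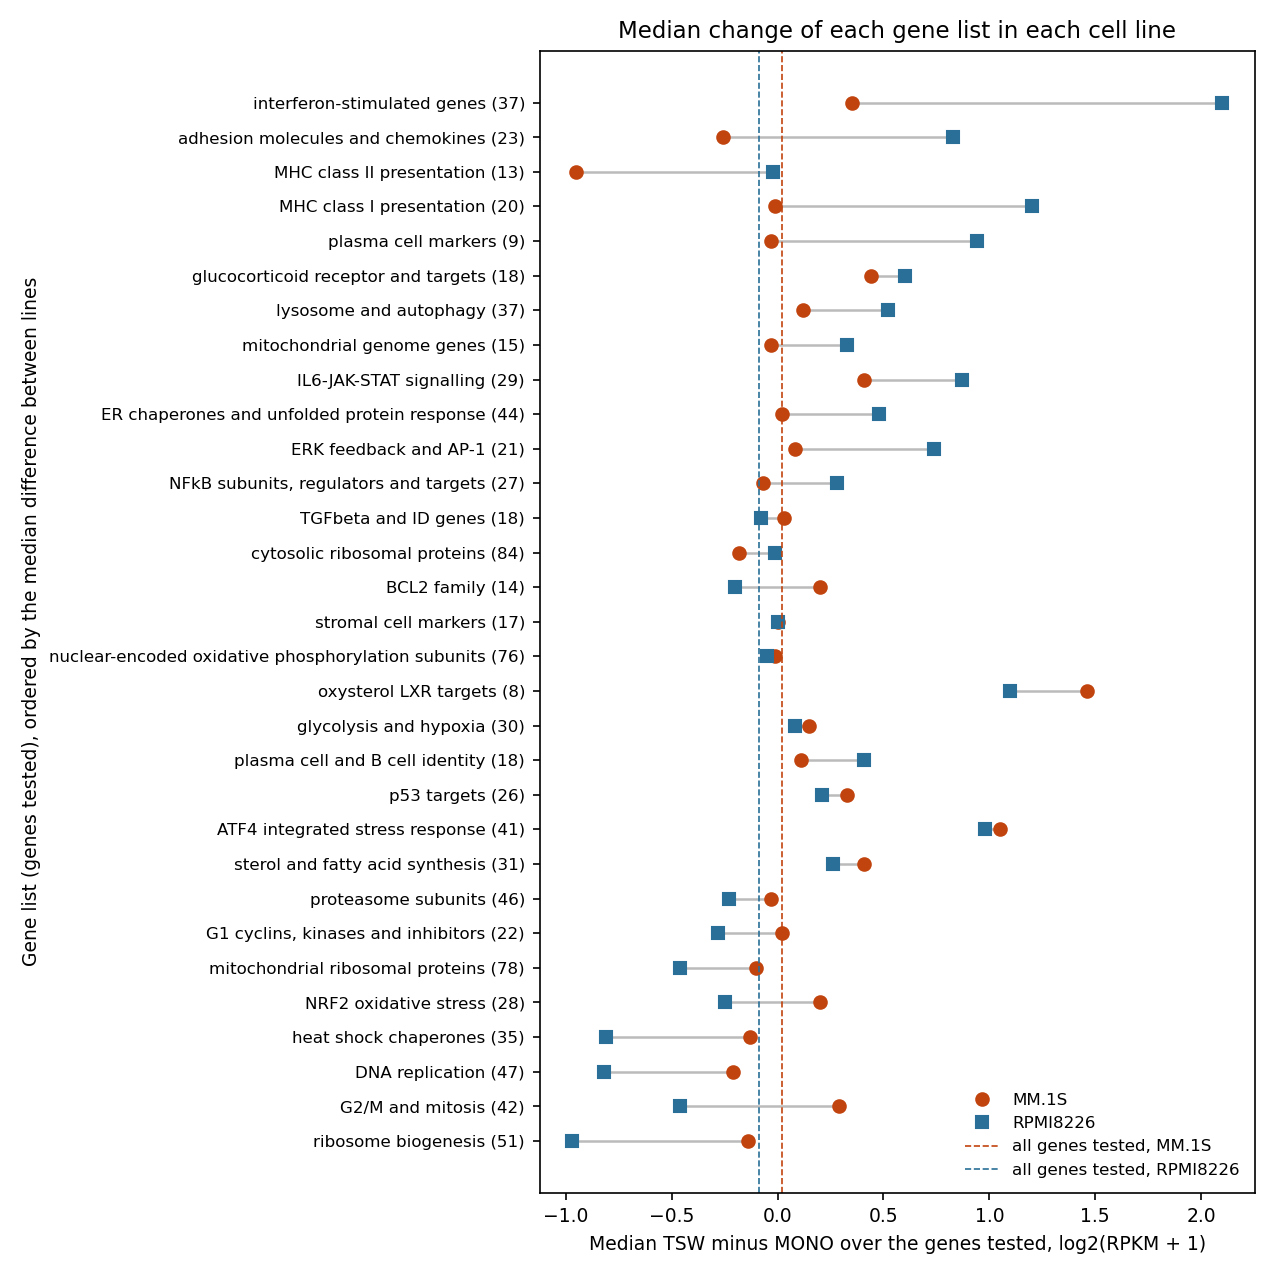
Median change from MONO to TSW over the tested genes of each list, in log2(RPKM + 1), for MM.1S (circles) and RPMI8226 (squares), with the number of genes in brackets and dashed lines at the medians of all genes tested, 0.02 and -0.09. Interferon-stimulated genes lie at 0.35 and 2.10, MHC class II presentation at -0.95 and -0.02, where the latter changes sign under some scalings, and ribosome biogenesis at -0.14 and -0.97.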

How the data were processed

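RNA of MM.1S and RPMI8226 cells was sequenced as mRNA libraries, and the authors deposited 1 table per line with values that are log2 of RPKM plus 1, with 0.0001 added. Per the submitters' notes, reads were aligned to hg38 with Subread and summarized on genes with featureCounts. The design assumed RPKM, the values showed log2, and the offset was removed. Tables were joined on gene ID, and 0 value columns were left unused.

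Genes averaging 1 RPKM or more in each table were fitted with limma 3.58.1 in R 4.3.3 (15 libraries, 6 groups, eBayes with trend), and p-values were adjusted by Benjamini-Hochberg over 9397 genes. Calls needed an adjusted p under 0.05 and over 1.5-fold in RPKM + 1. Tables and plots used Python 3.11.15, numpy 2.4.6, pandas 2.3.3 and matplotlib 3.10.9.

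Named genes were, per group, the 6 with the largest interaction among genes changed in 1 line only and the 5 with the largest smaller change among opposite genes, with no overlap of replicates, the same sign with the library term and no pseudogene named after them, and up to 3 per list, with RPS14P3, TRNN, SOCS3 and STAT3 added, and some named genes are not described. Members and lists were chosen with earlier results of these data known. The list of replication-dependent histones matched 0 genes. Alternatives changed the pseudocount, filters, scaling, fold thresholds, model terms and libraries.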

Additional observations from a re-analysis of the deposited data

Results flagged for a closer look

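The results below were singled out because the change from MONO to TSW differed between MM.1S and RPMI8226 in a test of that difference, the interaction in limma, fitted to all 9397 genes. It was called in 2521 genes, of which 122 changed in MM.1S only, 1076 in RPMI8226 only and 48 in opposite directions. Each value that follows is the interaction in log2(RPKM + 1), the change in MM.1S minus that in RPMI8226.

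Among genes higher in TSW of MM.1S only, the interactions were APOBEC3H 1.61, MITF 1.38, PCDH1 1.26, GPAT3 1.21, ME1 1.15, PSPH 1.86, IARS 0.91, DHCR7 0.87, FASN 0.68, FTL 1.46, PLK3 0.95. Among genes lower in TSW of MM.1S only, they were HLA-DRA -1.85, HLA-DRB5 -1.63, PTMS -1.56, TNFAIP8 -1.40, HOMER3 -1.34, TSPAN33 -1.31, ID2 -1.05.

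Among genes higher in TSW of RPMI8226 only, the interactions were OAS1 -3.66, SLFN5 -2.90, IRF7 -2.68, SELENOP -2.61, APOL3 -2.42, ZBP1 -2.42, PTPN6 -1.60, NFKB2 -1.21, IFITM1 -2.30, PPP1R15A -1.35, OS9 -1.06, P4HB -1.01, EDEM2 -0.86, ELOVL6 -1.17, P4HA1 -1.06, RPL12 -0.78, PSMB9 -1.06, HLA-F -2.22, HLA-E -2.08, HLA-C -1.63, CTSS -1.80, CD38 -1.59, MZB1 -1.09, SELPLG -2.25, CDKN1B -1.30, CCNG1 -1.05, PHLDA1 -1.38, NPC2 -1.65, SMPDL3A -1.17, COX2 -1.05. Among genes lower in TSW of RPMI8226 only, they were HMOX1 4.61, FRMD3 2.59, SPTLC3 2.42, U2AF1 2.37, KRT15 2.20, CGN 2.19, MYC 1.22, PGAM1 1.41, MCM10 1.58, GINS1 1.39, RFC3 1.37, CDC20 1.13, CENPF 1.02, SPC25 0.95, UTP20 1.53, MYBBP1A 1.26, WDR43 1.26, SDHD 1.29, ATP5G1 1.21, NDUFA5 0.83, MRPL1 1.90, MRPL3 1.41, MRPL35 1.11, RPL7 1.51, PSME3 0.96, PSMC1 0.93, HSPE1 1.98, FKBP4 1.71, HSPD1 1.44, BCL2L12 0.97, RBL1 1.0, NQO1 1.99, FKBP5 0.85, DUSP7 1.45, HES1 1.62, FN1 1.06. COX2, among the higher genes, is a cytochrome c oxidase gene of the mitochondrial genome and not the cyclooxygenase gene.

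Among genes with opposite changes, those higher in MM.1S had C2ORF54 3.88, CMTM7 2.0, NEIL3 2.20, C1orf186 1.47, LIMS1 1.45, FDXR 1.39, MT1X 2.07, and those higher in RPMI8226 had CCL5 -4.07, RGS1 -4.04, LY86 -2.46, ID3 -2.83, TNFAIP3 -1.56, ANKRD37 -1.56, JCHAIN -1.65, RPS14P3 -5.89. RPS14P3 was high in the libraries that stood apart, MM.1S MONO replicate 2 and both of RPMI8226 TSW. With the library term its interaction was -0.64 and the call was lost. SOCS3, which rose in both lines by different amounts, had 1.47, and 3.15 with a pseudocount of 0.1 and 3.78 with voom.

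TRNN had an interaction of 8.09 and CXCL8 of -2.04, but at most 3 PETs lay behind TRNN in RPMI8226 TSW and CXCL8 was at 0 in MONO and TSW of MM.1S and was tested only because CO of that line had 25.5, 23 and 22.7, so these fitted values depend on the pseudocount and are no bounds.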

How the results depend on the processing

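Of 2577 values of 105 named genes under 25 alternatives, 2543 kept their direction and side of the threshold, 30 lost the call and 4 reversed, and 88 of 104 called genes kept the call in every alternative that tested them. 43 of the 105 were not tested in all 25. The 4 reversals came with the term for libraries with high RPS14P3: the interaction of SDHD was -0.07, of NDUFA5 -0.14, of RPL7 -0.48 and of TRNN -1.76. With that term the calls of U2AF1 (0.01), PGAM1 (0.35), CDC20 (0.71), CENPF (1.5), SPC25 (0.18), MRPL1 (1.02), RPL12 (-0.82), PSMC1 (0.71), HSPE1 (0.09), HES1 (1.04) and RPS14P3 (-0.64) were also lost, the genes with a change in MM.1S below that in RPMI8226 numbered 613, those changed in MM.1S only 67 (41 higher, 26 lower), those higher in RPMI8226 only 236 and the opposite genes higher in MM.1S 28. The term was defined by an RPS14P3 RPKM over 50, so the loss of that gene's own call, among the 30, was fixed in advance. The cause of the other changes was not tested.

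Without a filter on low values, 222 genes changed in MM.1S only (109 higher, 113 lower) and 580 were higher in RPMI8226 only, as more genes were tested. With a mean RPKM of at least 5, fewer genes were tested, and 70 changed in MM.1S only (40 higher, 30 lower) and 30 in opposite directions, 19 of them higher in RPMI8226. Without a fold change threshold, 383 changed in MM.1S only (218 higher, 165 lower), 1783 in RPMI8226 only (617 higher, 1166 lower) and 385 in opposite directions (183 higher in MM.1S, 202 in RPMI8226). With up to 1.5-fold allowed in the other line, 195 changed in MM.1S only (107 higher, 88 lower) and 597 were higher in RPMI8226 only. Without genes with near-identical copies, 31 changed in opposite directions (10 higher in MM.1S, 21 in RPMI8226). Opposite genes numbered 74 with a pseudocount of 0.1, 34 of them higher in MM.1S, and 78 with voom, 35 of them higher in MM.1S, and the cause was not tested.

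Leaving out each library in turn gave 100 to 202 genes changed in MM.1S only (55 to 135 higher, 44 to 67 lower) and 41 to 99 in opposite directions (13 to 44 higher in MM.1S, 26 to 55 in RPMI8226). The highest values, 202, 135, 99, 44 and 55, came without MM.1S MONO replicate 3. Leaving out an RPMI8226 library leaves 1 in its group, assumed to vary like the other groups. CENPF lost its call in 8 alternatives and was 0.66 without MM.1S MONO replicate 1, FASN lost it in 3, SDHD without RPMI8226 MONO replicate 1 (1.14) or TSW replicate 2 (1.09), and NDUFA5 with median-of-ratios scaling (0.74), with a loess correction (0.59) and without RPMI8226 MONO replicate 1, TSW replicate 1 or TSW replicate 2 (0.75, 0.85, 0.81). RPL7 lost it without RPMI8226 MONO replicate 1 (1.45) and TRNN with voom (9.31). The interaction of COX2 was -0.64 with quantile normalization, that of U2AF1 3.71 with voom, and that of CXCL8 -4.22 with a pseudocount of 0.1 and -5.06 with voom.

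With a replicate block, which treats equal replicate numbers as pairs, 2538 genes were called (1519 above, 1019 below), 124 changed in MM.1S only, 1079 in RPMI8226 only and 50 in opposite directions. The share of opposite genes higher in MM.1S was 33.3%, but 45.9% with a pseudocount of 0.1, 47.5% without a fold change threshold and 51.9% with the library term. Depth limits genes near 1 PET, 0.0262 to 0.0555 RPKM on 2 kb, and groups of 3 or fewer libraries were not tested for outlying samples.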
